A study of Mus musculus with 8 samples.

Results

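The machinery that copies DNA was followed through 43 genes in mouse embryonic stem (ES) cells, embryonic fibroblasts (MEF) and 2 kinds of induced pluripotent stem (iPS) clone. The genes were listed by name and role and are 43 of the 23389 gene symbols tabulated for every library. They cover the origin recognition complex (6 genes), the licensing factors (3), the MCM2-7 helicase (6), 2 other MCM proteins, CDC45 and GINS (5), the sliding clamp and its loader (6), polymerase alpha-primase (4), polymerases delta and epsilon (4), Okazaki fragment joining (2), the single-strand binding protein RPA (3) and ribonucleotide reductase (2). All 43 were measured in all 8 libraries, and the lowest value was 2.59 RPKM (reads per kilobase of transcript and per unit of sequencing depth), for Mcm8 in a MEF library.

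RNA with a poly-A tail was sequenced from 4 groups of 2 libraries. The ES libraries are biological replicates of the D3-GFP line, of the 129S2/SvPas background. The 3F + IL6 iPS libraries are separately derived clones reprogrammed from MEF with Oct4, Klf4 and Sox2 in the presence of the cytokine IL6 at 10 ng/mL. The 4F iPS libraries are separately derived clones made with 4 factors, and the MEF libraries are biological replicates. All iPS and MEF libraries are of the BALB/c background. Strain and cell type therefore cannot be told apart in any comparison with ES cells, and the factor set and IL6 change together between the kinds of clone. Each ES library is the same line and each iPS library is a single clone, so the spread between libraries is that of 2 cultures or 2 clones.

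Chromosomes are copied once per cell cycle in steps carried out by separate complexes. The origin recognition complex marks origins, and CDC6 and CDT1 load the MCM2-7 rings there while CDT1 is free of its inhibitor geminin. In S phase CDC45 and GINS turn the rings into active helicases, polymerase alpha-primase lays down primers, and polymerases delta and epsilon extend them on the PCNA clamp that replication factor C loads. FEN1 and DNA ligase 1 join the Okazaki fragments of the lagging strand, RPA covers the exposed single strands, and ribonucleotide reductase makes the deoxynucleotides. Transcription of many of these genes depends on E2F factors and peaks near the entry into S phase, and ES cells are known for a short G1 phase that leaves a large share of cells in S phase.

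Because many of these genes are textbook E2F targets, their promoters were searched for the letters TTTCCCGC, TTTCGCGC, TTTGCCGC and TTTGGCGC on both strands, spellings of the E2F recognition sequence that can overlap each other. The windows ran from 250 bases before to 50 bases after the start of each gene in RefSeq annotation of GRCm38.p6. Of the 35 members with a window, 15 (42.9%) held at least 1 match, against 704 of all 27025 genes with a window (2.6%) and 454 of the 9340 genes with a window that were also tested for expression (4.86%). The following windows are shown because their matches lie before the RefSeq start and stand for the origin recognition complex, licensing, the helicase, polymerase alpha and GINS. The gene coordinates given further down are from GENCODE M21, where Orc1, Cdc6 and Gins3 start further upstream, at 108579423, 98907801 and 95633453. The matches of Orc1, Cdc6 and Gins3 therefore lie inside the gene in that annotation. Each reads 5′ to 3′ on the strand of its gene, with the matching letters in capitals.

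Orc1 (chr4:108579397-108579464, plus strand): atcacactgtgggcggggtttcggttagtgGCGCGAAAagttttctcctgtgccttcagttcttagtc

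Cdc6 (chr11:98907983-98908050, plus strand): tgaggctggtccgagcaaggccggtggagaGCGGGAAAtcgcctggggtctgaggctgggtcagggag

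Mcm5 (chr8:75109326-75109397, plus strand): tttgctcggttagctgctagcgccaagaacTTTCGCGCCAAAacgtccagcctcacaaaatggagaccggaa

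Mcm6 (chr1:128359715-128359845, minus strand): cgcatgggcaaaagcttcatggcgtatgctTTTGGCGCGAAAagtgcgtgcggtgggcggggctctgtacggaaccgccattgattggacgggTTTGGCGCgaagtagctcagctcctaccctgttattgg

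Pola1 (chrX:93632256-93632323, minus strand): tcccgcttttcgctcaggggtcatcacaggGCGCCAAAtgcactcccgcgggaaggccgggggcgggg

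Gins3 (chr8:95633488-95633555, plus strand): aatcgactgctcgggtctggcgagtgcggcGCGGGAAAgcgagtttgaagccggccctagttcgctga

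In Mcm5 2 matches overlap, and Mcm6 holds 3 matches, 2 of them overlapping. The other members with a match were Orc3, Cdt1, Mcm3, Mcm7, Mcm8, Rfc3, Pold1, Pole2 and Lig1. By complex, matches were found for 4 of the 5 MCM2-7 genes with a window, for both licensing factors with a window (Cdc6 and Cdt1), for 0 of the 3 RPA genes and for neither ribonucleotide reductase gene. Among other genes of the cell cycle, 7 of 21 further replisome and firing genes and 1 of 17 mitosis genes held a match. A match describes the letters of the window and not binding, and the lack of a match says only that these letters are absent from it.

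The libraries had an estimated depth of 11780000 to 18120000 reads. The 8 pluripotency markers summed to 4973 to 6109.8 RPKM in the 6 ES and iPS libraries and to 6.81 and 8.51 RPKM in MEF. Dppa5a alone was at 2335 to 3666 RPKM in those 6 libraries. In the limma test described below, 1 of the 8 was higher and 3 were lower than in ES in each kind of clone. Nanog was at 252 and 245 RPKM in ES and 131 to 181 in the iPS libraries, Zfp42 at 467 and 453 against 169 to 262, and Esrrb at 143 and 138 against 58.2 to 77.7. The 12 fibroblast markers summed to 3237 and 3224 RPKM in MEF, 13.8 and 14.2 in ES, 216 and 308 in 3F + IL6 and 203 and 174 in 4F. Not every marker followed these sums. Dcn was at 34.7 and 33.7 RPKM in MEF, 44.1 and 66.6 in 3F + IL6 and 30.9 and 24.5 in 4F. Lum was at 3.91 and 3.59 in MEF, 5.26 and 10.0 in 3F + IL6 and 3.33 and 2.94 in 4F. In the limma test described below, the other 10 were lower than in MEF in each kind of clone. All 12 were at 1 RPKM or more in every iPS library, against 4 of 12 in each ES library, where Lum was at 0 in ES 2. Their part in the differences between iPS and ES cells was not tested. Rn45s, Rpph1 and Rmrp, RNAs without a poly-A tail, summed to 267 to 704 RPKM in ES 2, both 4F clones and MEF 2, and to 46.5 to 89.8 in the other 4 libraries. This library difference coincides with the kind of iPS clone, so library class and kind of clone cannot be told apart between 3F + IL6 and 4F.

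**Figure D1:**
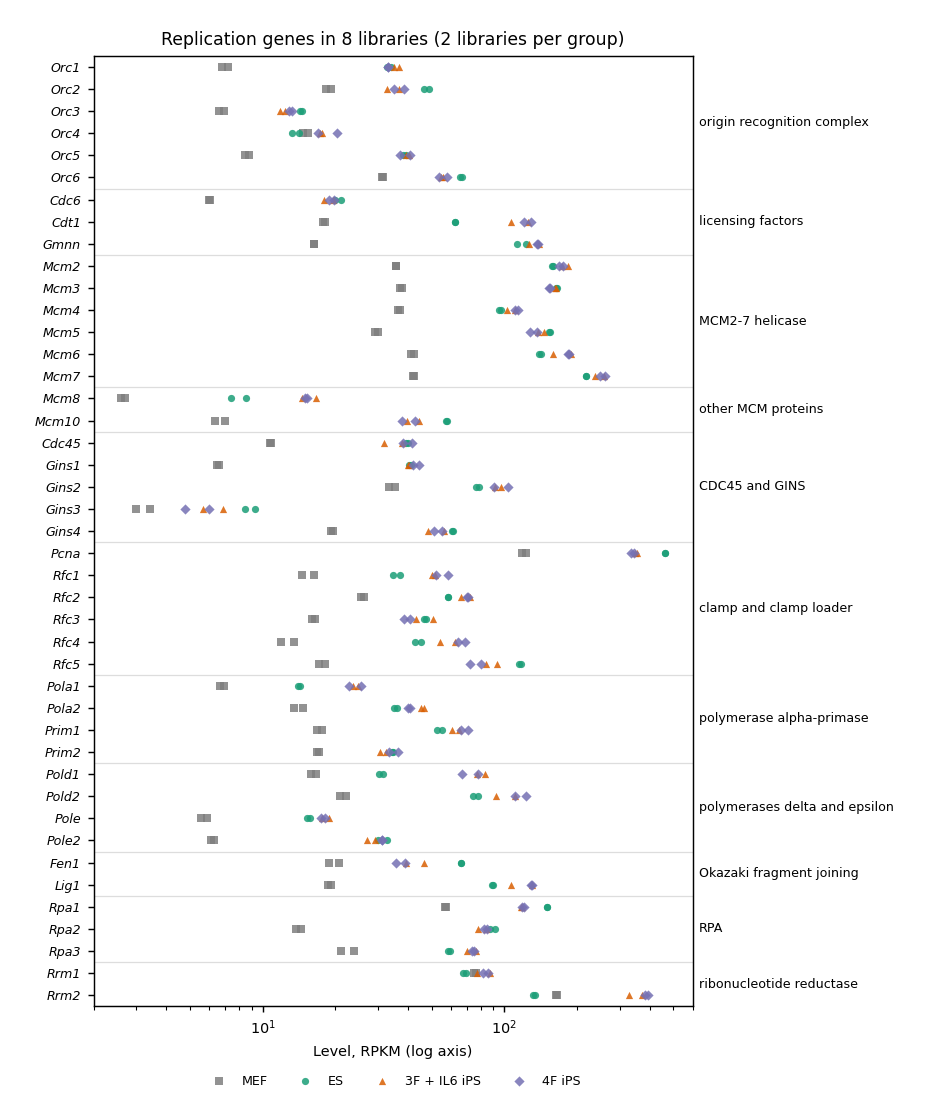
Level of each of the 43 genes in each of the 8 libraries, in RPKM on a log axis, grouped by complex (squares MEF, circles ES, triangles 3F + IL6 iPS, diamonds 4F iPS, 2 points per group). For 40 genes both MEF points lie left of all 6 ES and iPS points. Orc4, Rrm1 and Rrm2 are the exceptions.

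Nearly the whole machinery was more abundant in ES cells and in both kinds of iPS clone than in fibroblasts. Together the 43 genes made up 0.635% and 0.636% of all summed RPKM in the ES libraries, 0.655% to 0.677% in the iPS libraries and 0.236% and 0.237% in MEF. For 40 of the 43 genes, all 6 ES and iPS libraries lay above both MEF libraries, against 45.4% of all 13200 genes tested. Orc4, Rrm1 and Rrm2 did not follow this order. In bulk RNA, a smaller fraction of cells in S phase and less RNA of these genes per cell cannot be told apart.

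Differences were tested with limma on log2(RPKM + 1), and a gene counted as higher or lower where the Benjamini-Hochberg adjusted p over all genes was under 0.05. Against MEF, 40 members were higher and 1 lower in ES cells, 41 were higher and 0 lower in 3F + IL6 clones, and 42 were higher and 0 lower in 4F clones. Of all genes tested, 81.7%, 82.1% and 83.6% were called in these 3 comparisons, 49.7%, 49.4% and 49.2% as higher and 32%, 32.6% and 34.4% as lower. The 2 groups did not overlap for any of the 43 members in each comparison, against 94.4%, 90.4% and 93.7% of all genes. The median difference of the members was 1.61, 1.67 and 1.78, beside 0.27, 0.26 and 0.25 over all genes. Those all-gene medians depend on the scaling: they were 0.18, 0.15 and 0.17 with median centring and 0.15, 0.06 and 0.09 with quantile normalization, where the members' medians were 1.44, 1.56 and 1.68. The 3 comparisons share the MEF libraries and are not independent of each other.

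Over the members, the largest difference from MEF was that of Mcm10 in ES cells (2.93, SE 0.09) and that of Gmnn in both kinds of clone (2.94, SE 0.06, in 3F + IL6 and 2.99, SE 0.06, in 4F). Within libraries alike in their RNAs without a poly-A tail, the members' median difference between ES and MEF was 1.60 in both classes, with 40 of 43 genes above 0. It was 1.74 for 3F + IL6 and 1.69 for 4F, with all 43 genes above 0 in each. Each of these values rests on 1 MEF library, and each value of ES on 1 ES library as well. Members with a promoter match had median differences from MEF of 1.72 in ES, 2.09 in 3F + IL6 and 2.09 in 4F (15 genes), and members with a window and no match had 1.65, 1.65 and 1.73 (20 genes).

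**Figure D2:**
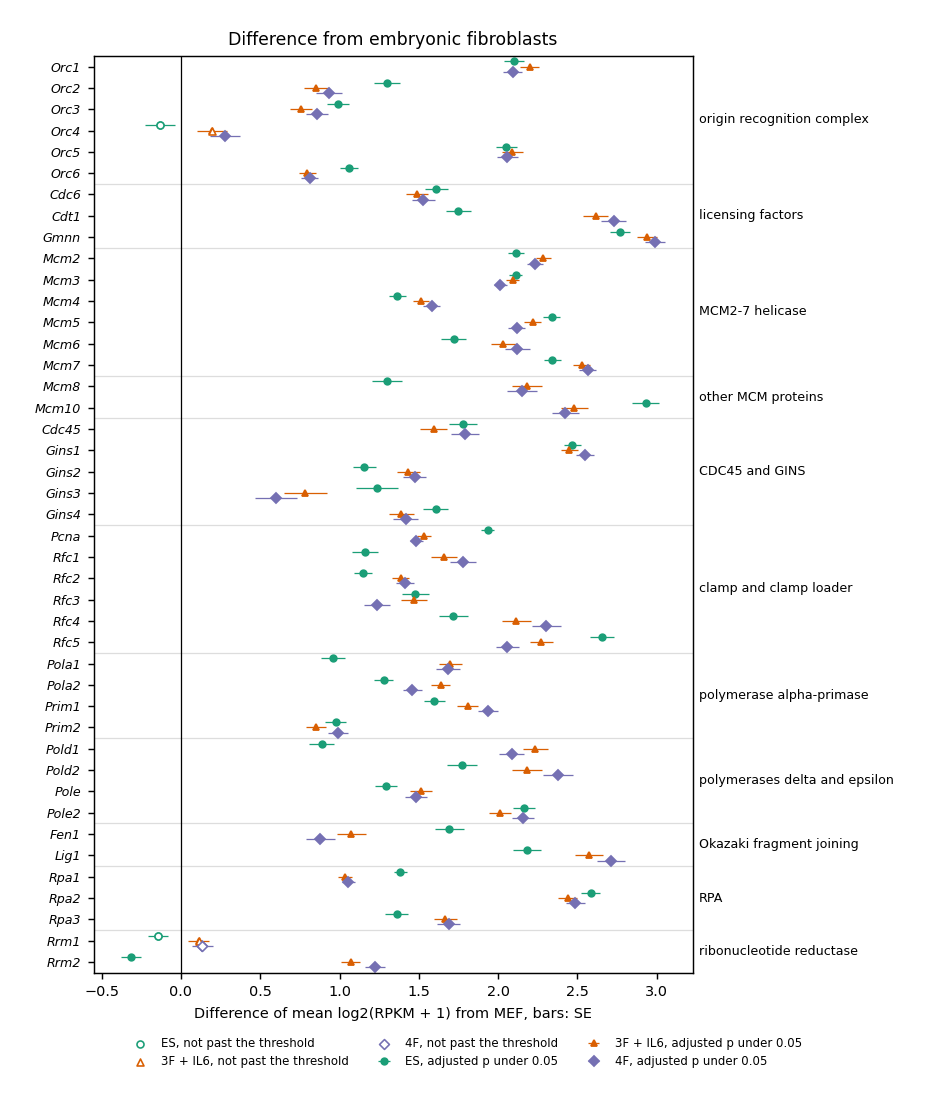
Difference of mean log2(RPKM + 1) from MEF for each gene in ES cells (circles), 3F + IL6 clones (triangles) and 4F clones (diamonds), with bars for the standard error and open symbols for genes not past the threshold. Most genes lie between 1 and 3. Rrm2 is below 0 in ES cells only, at −0.32, and above 1 in both kinds of clone.

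The iPS clones did not have the ES levels of every replication gene. Against ES cells, 22 members were higher and 10 lower in 3F + IL6 clones, and 21 were higher and 10 lower in 4F clones. Of all genes tested, 63.4% were called in 3F + IL6 (33.1% higher and 30.3% lower) and 67.2% in 4F (33.7% higher and 33.5% lower). The libraries did not overlap with ES for 40 members in 3F + IL6, against 81.8% of all genes, and for 38 in 4F, against 87.3%. The members' median difference was 0.15 and 0.12, beside 0.01 and 0.00 over all genes. The largest differences, those of Rrm2 and Pold1, were upward in both kinds of clone.

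The comparisons with ES cells share the ES libraries, so their calls are given side by side. Both kinds of clone were called higher for 21 members and lower for 8, and 9 members were called in neither. Mcm2 was called higher in 3F + IL6 alone, Orc3 and Gins4 were called lower in 3F + IL6 alone, and Mcm5 and Rfc3 were called lower in 4F alone. The difference between the kinds of clone, described further down, was past the threshold for none of these 5 genes. Among the 17 other settings tried, the call of Gins4 was lost in 13, that of Rfc3 in 11, Mcm2 in 6, Orc3 in 4 and Mcm5 in 1. In a fit of only the 4 libraries compared, 4F was also called higher for Mcm2 (0.12) and lower for Gins4 (−0.19). In both kinds of clone and in all 17 other settings tried, 14 members kept their call against ES: Cdt1, Mcm8, Rfc1, Pola1, Pold1, Lig1 and Rrm2 were higher, and Orc2, Orc6, Mcm10, Pcna, Rfc5, Fen1 and Rpa1 were lower. For 3F + IL6, 15 of the 32 calls held in all 17 settings. Without ES 1, 19 members were called in 3F + IL6, and without ES 2, 18 were, where the ES group rests on 1 library and 49.2% and 49.4% of all genes were called. For 4F, 24 of the 31 calls held in all 17.

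Members with related roles differed from ES cells in opposite directions. In 6 of the 11 groups, the clamp and its loader, the origin recognition complex, RPA, CDC45 and GINS, the other MCM proteins and the Okazaki fragment genes, some members were higher and some lower than in ES cells in both kinds of clone. Over all genes, 33.1% were called higher and 30.3% lower in 3F + IL6, and 33.7% and 33.5% in 4F. With such shares, calls in both directions within a group are not particular to these complexes. In the origin recognition complex, RPA and GINS, the opposing 3F + IL6 calls included some (Orc4, Rpa3, Gins2 and Gins3) that were lost in other settings. In polymerase alpha-primase and in polymerases delta and epsilon, 3 of 4 members were higher in each kind of clone and 0 lower. Some of these calls were also lost in other settings: in 3F + IL6 Prim1 in 5, Pole in 4 and Pold2 in 1, and in 4F Pole in 9 and Pola2 in 5. All 4 iPS libraries lay above both ES libraries for 22 members, against 38.2% of all genes, and below both for 14, against 35.9%. Within libraries alike in their RNAs without a poly-A tail, 25 members were above and 18 below 0 in 3F + IL6 against ES (median 0.13), and 26 above and 17 below in 4F against ES (median 0.11), with 1 ES library in each.

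**Figure D3:**
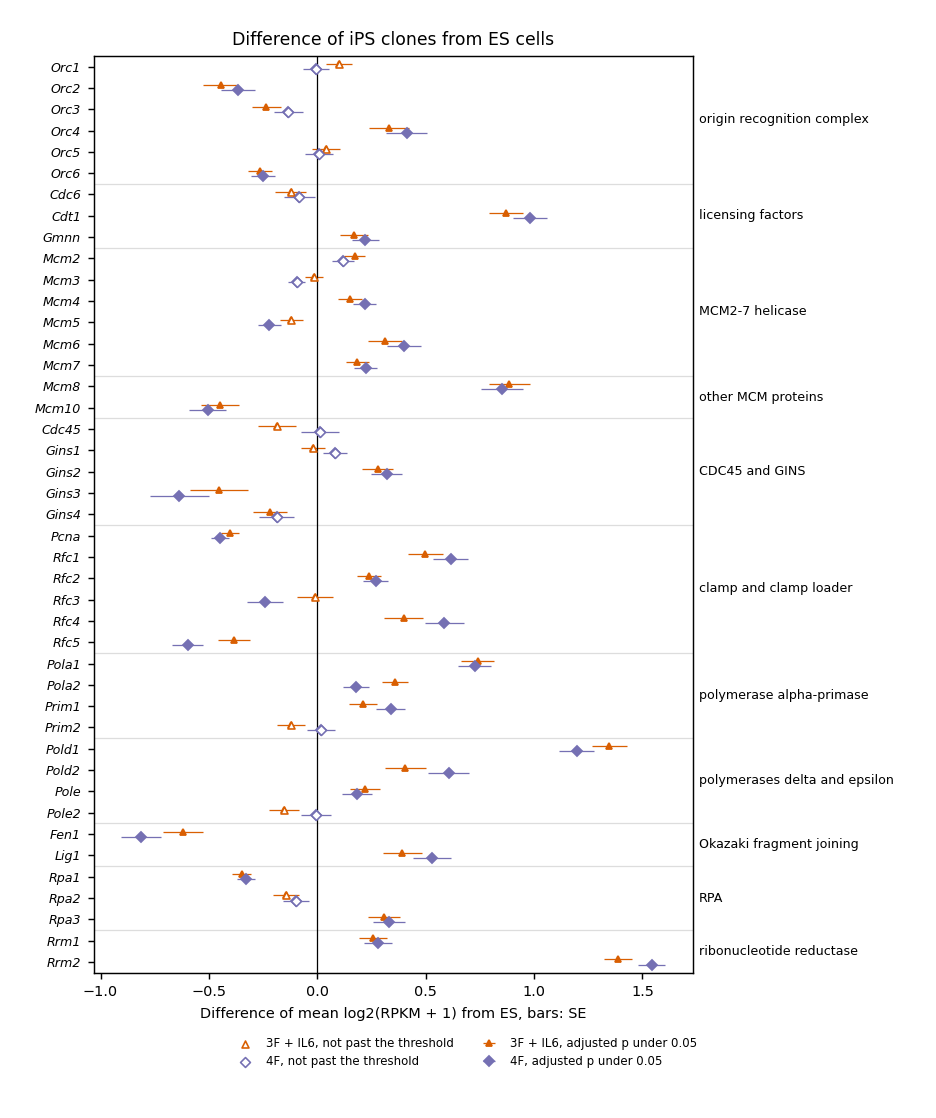
Difference of mean log2(RPKM + 1) from ES cells for each gene in 3F + IL6 clones (triangles) and 4F clones (diamonds), with bars for the standard error and open symbols for genes not past the threshold. Rrm2 and Pold1 lie above 1 in both, and Fen1 lies lowest in both, at −0.62 and −0.81.

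The origin recognition complex was uneven in its difference from fibroblasts. Orc1 (chr4:108579423-108614833, plus strand, mm10), an ATPase subunit that binds origins, was at 6.80 and 7.21 RPKM in MEF, 32.7 and 33.9 in ES, 36.6 and 34.97 in 3F + IL6 and 33.1 and 33.1 in 4F. Orc5 was at 8.75 and 8.42 RPKM in MEF and at 37.1 to 40.9 in the 6 other libraries. Both genes stood at more than 4 times the MEF level, with a fold of 4.76 for Orc1 and 4.51 for Orc5 in ES cells. Orc2, Orc3 and Orc6 were higher than in MEF by less, with log2 differences of 1.30, 0.99 and 1.06 in ES cells.

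Orc4, another ATPase subunit (chr2:48902824-48950277, minus strand), did not share this pattern. It was at 15.4 and 14.7 RPKM in MEF, 14.1 and 13.2 in ES, 17.3 and 17.6 in 3F + IL6 and 16.9 and 20.2 in 4F. The ES libraries lay lowest, and all 4 iPS libraries lay above the MEF libraries. In limma the difference from MEF was −0.13 (adjusted p = 0.22) in ES cells, 0.20 (adjusted p = 0.085) in 3F + IL6 and 0.28 (adjusted p = 0.025) in 4F. The 4F call was lost with median centring and quantile normalization (0.28 became 0.20 in each) and without 4F 2, MEF 1 or MEF 2 (0.15, 0.31 and 0.25), and with quantile normalization ES was called lower than MEF (−0.26). Exons of Orc4 overlap Acvr2a and Mbd5 on the opposite strand, and whether reads were counted by strand is not given in the sources used here.

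Against ES cells, Orc2 and Orc6 were lower in both kinds of clone. Orc2 was at 46.5 and 48.7 RPKM in ES, 32.6 and 36.8 in 3F + IL6 and 34.98 and 38.5 in 4F, differences of −0.45 (SE 0.08) and −0.37 (SE 0.08). Orc6 was at 67.1 and 65.6 RPKM in ES, 55.6 and 54.6 in 3F + IL6 and 53.5 and 57.9 in 4F, differences of −0.26 and −0.25. Orc4 was higher, by 0.33 and 0.41, a call that 3F + IL6 lost without ES 2 (0.28). Orc1 and Orc5 were past the threshold in neither. Exons of Orc2 overlap Nif3l1 and those of Orc6 overlap Vps35 on the opposite strand.

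Of the licensing factors, Cdt1 separated the clones from ES cells most. Cdt1 (chr8:122568015-122573554, plus strand), which brings MCM2-7 to origins, was at 18.1 and 17.8 RPKM in MEF, 62.5 and 62.7 in ES, 125 and 106 in 3F + IL6 and 128 and 121 in 4F. The kinds of clone overlapped each other, and neither overlapped ES cells or MEF. They were above ES cells by 0.87 (SE 0.08) and 0.98 (SE 0.08) and above MEF by 2.62 and 2.73. Gmnn, which encodes the CDT1 inhibitor geminin, was at 16.4 and 16.4 RPKM in MEF, 123 and 113 in ES, 138 and 127 in 3F + IL6 and 137 and 137 in 4F. Gmnn was thus 7.19 times its MEF level in ES cells and 8.39 times in 4F.

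The ratio of Cdt1 to Gmnn RPKM ordered the groups differently from either gene. It was 1.11 and 1.09 in MEF, 0.51 and 0.556 in ES, 0.901 and 0.84 in 3F + IL6 and 0.938 and 0.879 in 4F. ES cells had the lowest ratio and MEF the highest, with the iPS clones between. The Gmnn difference of the clones from ES cells was small (0.17 and 0.22), and its call was lost in 13 of the 17 other settings in 3F + IL6, without either ES library (0.23 and 0.11) and with median centring (0.14) among them, and in 3 in 4F, without ES 2 (0.16) or either 4F clone (0.22 in each). Cdc6, the ATPase that works with CDT1, was at 6.07 and 5.97 RPKM in MEF and between 17.95 and 21.03 in the other 6 libraries, and it was called against ES in neither kind of clone.

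The 6 subunits of the MCM2-7 ring, the core of the replicative helicase, were all higher than in MEF in ES cells and in both kinds of clone. Summed over the 6 genes the level was 223 RPKM in each MEF library, 928 and 930.4 in ES, 1049 and 973 in 3F + IL6 and 1018 and 998 in 4F. The smallest difference from MEF was that of Mcm4 (1.36, 1.51 and 1.58) and the largest was that of Mcm7 (2.34, 2.53 and 2.57), with Mcm5 beside it in ES cells (2.34).

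The proportions of the ring's transcripts differed between fibroblasts and the other cells, although the protein subunits are used in equal numbers. In MEF the highest of the 6 was 1.45 and 1.41 times the lowest. In the ES and iPS libraries it was 2.19 to 2.36 times, and Mcm7 was highest and Mcm4 lowest in each. Mcm7 was at 42.03 and 42.1 RPKM in MEF, 217 and 218 in ES, 257 and 238 in 3F + IL6 and 260.3 and 248 in 4F. Mcm4 was at 37.1 and 36.3 in MEF, 94.8 and 97.3 in ES, 111 and 103 in 3F + IL6 and 110.3 and 113 in 4F. Exons of Mcm7 overlap those of Cops6 and Ap4m1 on the opposite strand, so part of its reads could belong to them.

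Differences of the ring from ES cells were small. Mcm6 was at 141 and 139 RPKM in ES, 189 and 159.5 in 3F + IL6 and 184 and 186 in 4F, which is 0.31 (SE 0.08) and 0.40 (SE 0.08) higher. The 3F + IL6 call was lost without ES 2 (0.30), and also in a fit of only the 4 libraries compared. Mcm3 was past the threshold in neither kind of clone. Mcm5 was −0.22 in 4F against ES, a call that was lost without ES 2 (−0.22).

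MCM8 and MCM10 share the name but not the ring: MCM8 works with MCM9 in homologous recombination, and MCM10 helps to activate the helicase. They differed in opposite directions between ES cells and the clones. Mcm8 (chr2:132816141-132844197, plus strand) was at 2.69 and 2.59 RPKM in MEF, 8.52 and 7.42 in ES, 14.6 and 16.5 in 3F + IL6 and 15.03 and 15.3 in 4F. Mcm10 (chr2:4989714-5012791, minus strand) was at 6.35 and 6.98 in MEF, 57.2 and 57.7 in ES, 39.5 and 44.2 in 3F + IL6 and 37.7 and 42.7 in 4F. In neither gene did ES and iPS libraries overlap. Mcm8 was higher than in ES cells by 0.88 (SE 0.09) and 0.85 (SE 0.09), and Mcm10 was lower, at −0.45 (SE 0.09) and −0.51 (SE 0.09).

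CDC45 and the 4 GINS subunits complete the active helicase. All 5 were higher than in MEF in ES cells and in both kinds of clone, with Gins1 highest at 2.47, 2.45 and 2.55. Gins3 was the least abundant of the 5 in every library, at 2.98 and 3.44 RPKM in MEF, 9.33 and 8.49 in ES, 5.65 and 6.87 in 3F + IL6 and 4.77 and 6.03 in 4F. It was lower in the clones than in ES cells, at −0.45 (adjusted p = 0.022 in limma) and −0.64 (adjusted p = 0.0048). Leaving out ES 1, ES 2 or 3F + IL6 1 ended the 3F + IL6 call (−0.39, −0.51 and −0.33). Gins2, at 76.1 and 78.6 RPKM in ES, 96.98 and 91.1 in 3F + IL6 and 103 and 90.8 in 4F, differed the other way (0.28, a call lost without ES 1 at 0.25, and 0.32). Cdc45 and Gins1 were called against ES in neither.

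Pcna (chr2:132249162-132253314, minus strand), which encodes the sliding clamp, was the most abundant member in ES cells. It was at 118 and 122 RPKM in MEF, 463 and 461 in ES, 346 and 353 in 3F + IL6 and 333 and 343 in 4F. The clones were thus at 2.91 and 2.81 times the MEF level and at 0.756 and 0.731 times the ES level, differences from ES of −0.40 (SE 0.04) and −0.45 (SE 0.04). The annotation lists 2 named processed copies of Pcna, Pcna-ps1 and Pcna-ps2, and how shared reads were assigned is not given in the sources used here, so the level is uncertain.

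The clamp loader, replication factor C, is built from a large subunit and 4 small ones. Against MEF all 5 genes were higher in all 3 comparisons, from 1.15 for Rfc2 to 2.66 for Rfc5 in ES cells. Against ES cells they separated. Rfc1, the large subunit, was at 14.5 and 16.4 RPKM in MEF, 37.02 and 34.5 in ES, 51.4 and 50.4 in 3F + IL6 and 52.3 and 58.3 in 4F, higher in the clones by 0.50 (SE 0.08) and 0.61 (SE 0.08). Rfc4 (0.40 and 0.59) and Rfc2 (0.24 and 0.27) were also higher, but in 3F + IL6 Rfc2 lost its call without ES 1 or ES 2 (0.24 in each) and Rfc4 without ES 2 (0.36). Rfc5, at 18.1 and 17.03 in MEF, 117 and 115 in ES, 84.3 and 92.99 in 3F + IL6 and 72.3 and 80.2 in 4F, was lower, at 0.765 and 0.658 times the ES level. Exons of Rfc4 overlap Eif4a2 and those of Rfc5 overlap Wsb2 on the opposite strand.

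Polymerase alpha-primase starts each new strand. Pola1, its catalytic DNA polymerase subunit (chrX:93304767-93632155, minus strand), was at 6.63 and 6.92 RPKM in MEF, 14.2 and 14.00 in ES, 24.9 and 23.6 in 3F + IL6 and 22.7 and 25.4 in 4F. The clones lay above ES cells by 0.74 (SE 0.08) and 0.73 (SE 0.08), beside a difference of 0.96 between ES cells and MEF. Pola2, the regulatory subunit, was higher by 0.36 and 0.18, the second of which was lost without either ES library (0.20 and 0.16) or either 4F clone (0.19 and 0.16). Prim1, which synthesizes the RNA primer, was at 52.6 and 55.3 RPKM in ES, 64.7 and 60.5 in 3F + IL6 and 65.97 and 71.03 in 4F, and Prim2 was called against ES in neither.

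Polymerase delta gave the second largest departure of the clones from ES cells. Pold1, its catalytic subunit (chr7:44532746-44548849, minus strand), was at 16.6 and 15.9 RPKM in MEF, 30.4 and 31.4 in ES, 83.1 and 77.3 in 3F + IL6 and 77.7 and 67.05 in 4F. The lowest iPS library (67.05) was above the highest of the other 4 libraries (31.4). The clones were at 2.59 and 2.34 times the ES level, log2 differences of 1.35 (SE 0.08, adjusted p = 2.1e-05 in limma) and 1.20 (SE 0.08, adjusted p = 3.3e-05). ES cells differed from MEF by 0.89 (SE 0.08), the smallest upward difference of the members called higher in that comparison.

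Pold2, the accessory subunit that binds POLD1, was at 22.1 and 20.98 RPKM in MEF, 74.4 and 77.9 in ES, 111 and 92.7 in 3F + IL6 and 123 and 110.3 in 4F. Its ratio to Pold1 set ES cells apart: Pold1 stood at 0.409 and 0.403 times Pold2 in ES cells, 0.749 and 0.759 in MEF, 0.752 and 0.834 in 3F + IL6 and 0.632 and 0.608 in 4F. The epsilon subunits differed less between ES cells and clones. Pole, its catalytic subunit, was at 5.53 and 5.90 in MEF, 15.6 and 15.3 in ES, 17.6 and 18.8 in 3F + IL6 and 17.4 and 18.1 in 4F, and its calls against ES (0.22 and 0.18) were lost without either ES library (0.23 and 0.21 in 3F + IL6, 0.20 and 0.17 in 4F). Pole2 was called in neither.

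FEN1, the flap endonuclease, and DNA ligase 1, which seals nicks, act in turn on the same Okazaki fragments, and their genes differed in opposite directions between ES cells and clones. Fen1 (chr19:10199132-10204169, minus strand) was at 20.7 and 18.9 RPKM in MEF, 66.00 and 66.5 in ES, 39.3 and 46.5 in 3F + IL6 and 35.6 and 38.9 in 4F. Lig1 (chr7:13277283-13311433, plus strand) was at 18.7 and 19.2 in MEF, 89.2 and 89.9 in ES, 130.2 and 107 in 3F + IL6 and 130.4 and 129 in 4F. Fen1 was lower than in ES cells, at −0.62 (SE 0.09) and −0.81 (SE 0.09), and Lig1 was higher by 0.39 (SE 0.09) and 0.53 (SE 0.09).

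The ratio of Lig1 to Fen1 RPKM was 0.90 and 1.02 in MEF, 1.35 in both ES libraries, 3.31 and 2.29 in 3F + IL6 and 3.66 and 3.31 in 4F. All 4 iPS libraries were above both other groups, and the 3F + IL6 clones differed from each other. Exons of Fen1 overlap Tmem258 and those of Lig1 overlap Zswim9 on the opposite strand.

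The 3 subunits of RPA were higher than in MEF in ES cells and in both kinds of clone, and Rpa2 more than its partners (2.59, 2.44 and 2.49). Rpa1, the large DNA-binding subunit, was at 57.2 and 56.6 RPKM in MEF, 150.2 and 150.0 in ES, 119 and 117 in 3F + IL6 and 118 and 121 in 4F. Rpa2 was at 13.8 and 14.4 in MEF, 91.7 and 87.2 in ES, 83.99 and 77.6 in 3F + IL6 and 82.4 and 84.7 in 4F. The ratio of Rpa1 to Rpa2 was 4.16 and 3.94 in MEF and 1.41 to 1.72 in the other 6 libraries, which set MEF apart. Rpa1 was lower in the clones than in ES cells (−0.35 and −0.33), Rpa3 was higher (0.31, lost without ES 2 at 0.29, and 0.33), and Rpa2 was called in neither.

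Ribonucleotide reductase held a member that was lower in ES cells than in fibroblasts. Its small subunit gene Rrm2 (chr12:24708241-24714146, plus strand), whose transcript is tied to S phase, was at 164 and 165 RPKM in MEF, 133 and 131 in ES, 369 and 326 in 3F + IL6 and 394 and 381 in 4F. The 4 groups did not overlap, with ES cells lowest, MEF next and all iPS clones above. In limma Rrm2 was lower in ES cells, at 0.801 times the MEF level (−0.32, SE 0.06, adjusted p = 0.0022). It was higher in the clones, at 2.63 and 2.93 times the ES level, log2 differences of 1.39 (SE 0.06, adjusted p = 7.4e-06) and 1.54 (SE 0.06, adjusted p = 5.4e-06), the largest of any member.

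Rrm1, the large subunit (chr7:102441695-102469771, plus strand), was at 76.6 and 74.9 RPKM in MEF, 67.2 and 69.7 in ES, 86.8 and 77.4 in 3F + IL6 and 81.2 and 85.4 in 4F. It was called against MEF in none of the 3 comparisons (−0.14, 0.11 and 0.13). ES was called lower with median centring (−0.23) and quantile normalization (−0.34), and the sign for the clones turned with quantile normalization (−0.04 in 3F + IL6 and −0.01 in 4F). In a fit of only the 4 libraries compared, and without either 3F + IL6 clone, ES was called lower (−0.14) and 4F higher (0.13), and 3F + IL6 was called higher without its clone 2 (0.19). The ratio of Rrm2 to Rrm1 was 2.15 and 2.21 in MEF, 1.98 and 1.88 in ES, 4.25 and 4.22 in 3F + IL6 and 4.85 and 4.46 in 4F. Summed, the 2 genes were at 241 and 240.4 RPKM in MEF and at 200.5 and 200.6 in ES.

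**Figure D4:**
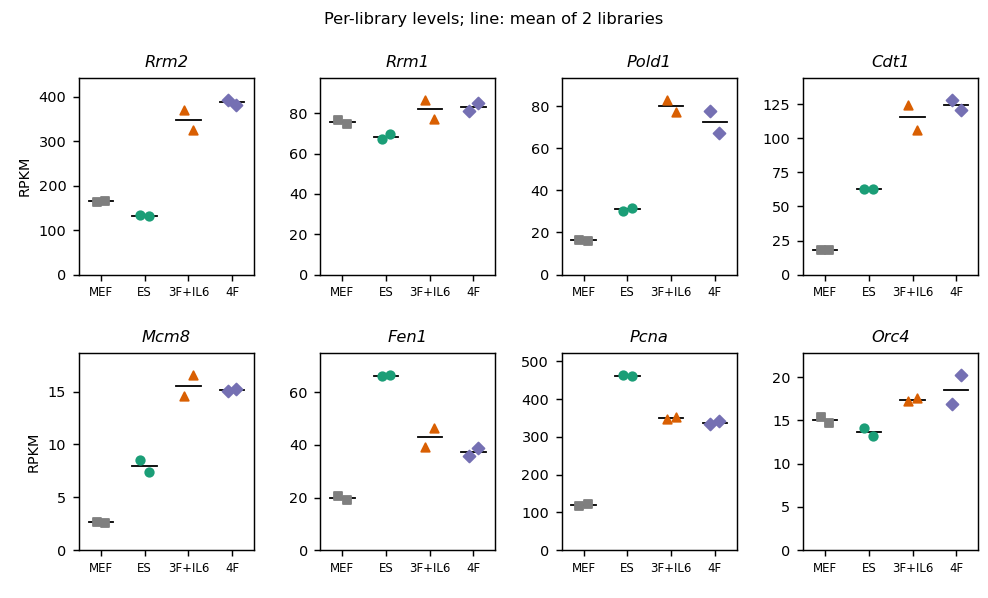
Level in each library, in RPKM on a linear axis from 0, for 8 genes (columns MEF, ES, 3F + IL6 and 4F, 2 points per group, line at the mean). Rrm2, Pold1, Cdt1 and Mcm8 are highest in the iPS clones, and Fen1 and Pcna are highest in ES cells. Rrm1 runs from 67.2 to 86.8 RPKM and Orc4 from 13.2 to 20.2 RPKM, and both are lowest in ES cells.

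Between the kinds of clone no replication gene was past the threshold with all libraries in the fit. In limma 0 of the 43 members were past the threshold for 3F + IL6 against 4F, while 4 (Rfc3, Rfc5, Pola2 and Rrm2) had an unadjusted p under 0.05. Of all genes, 1.34% were called (0.773% higher and 0.568% lower) and 24.2% had an unadjusted p under 0.05. Without the variance trend 0 were called, with 3 at an unadjusted p under 0.05. The differences ran from −0.20 to 0.23 with a median of −0.03, beside 0.03 over all genes, and 16 were above 0 and 27 below. The groups did not overlap for 17 members, against 46.7% of all genes.

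The 95% intervals are those of the fit of all 8 libraries, whose spread is shared by the clones, ES cells and MEF. Over all genes the median SE of this comparison was 0.10 in that fit and 0.13 with only the 4 libraries compared. The intervals may therefore be too narrow for these clones. They reached from −0.42 (Pold2) to 0.50 (Gins3), and 42 of the 43 lay wholly within 0.5 of 0. For Rrm2 the difference was −0.16 (SE 0.06, adjusted p = 0.19 in limma), with libraries at 369 and 326 RPKM in 3F + IL6 and 394 and 381 in 4F. For Rfc5 it was 0.21 (SE 0.07), with 84.3 and 92.99 RPKM against 72.3 and 80.2. For Rfc3 it was 0.23, with 50.7 and 43.02 RPKM against 38.4 and 40.8. In none of these genes did the kinds of clone overlap, as in 46.7% of all genes. All are among the members with an unadjusted p under 0.05 in limma for this same comparison, so the lack of overlap adds no separate evidence.

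The 3F + IL6 clones themselves were less alike than other replicates. Clone 1 was above clone 2 for 29 of the 43 members, and the median distance between the clones was 0.11 on the log2 scale, against 0.03 in ES, 0.08 in 4F and 0.05 in MEF. Over all genes tested, that distance was 0.18 in 3F + IL6, 0.06 in ES, 0.10 in 4F and 0.05 in MEF. The median log2 level of all genes tested ran the other way, at 3.28 in clone 1 and 3.36 in clone 2. Across genes, which are not independent, Pearson's r between replicates was 0.984 in 3F + IL6 and 0.994 to 0.996 in the other groups. The count of members called depended on them: without clone 1 it was 9 (2 higher and 7 lower in 3F + IL6) and without clone 2 it was 1 (Rfc3, higher), where 36.4% and 6.2% of all genes were called, each resting on a single clone whose spread is taken from the other groups. With the class of library as a term 0 were called, and the differences ran from −0.31 to 0.27.

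**Figure D5:**
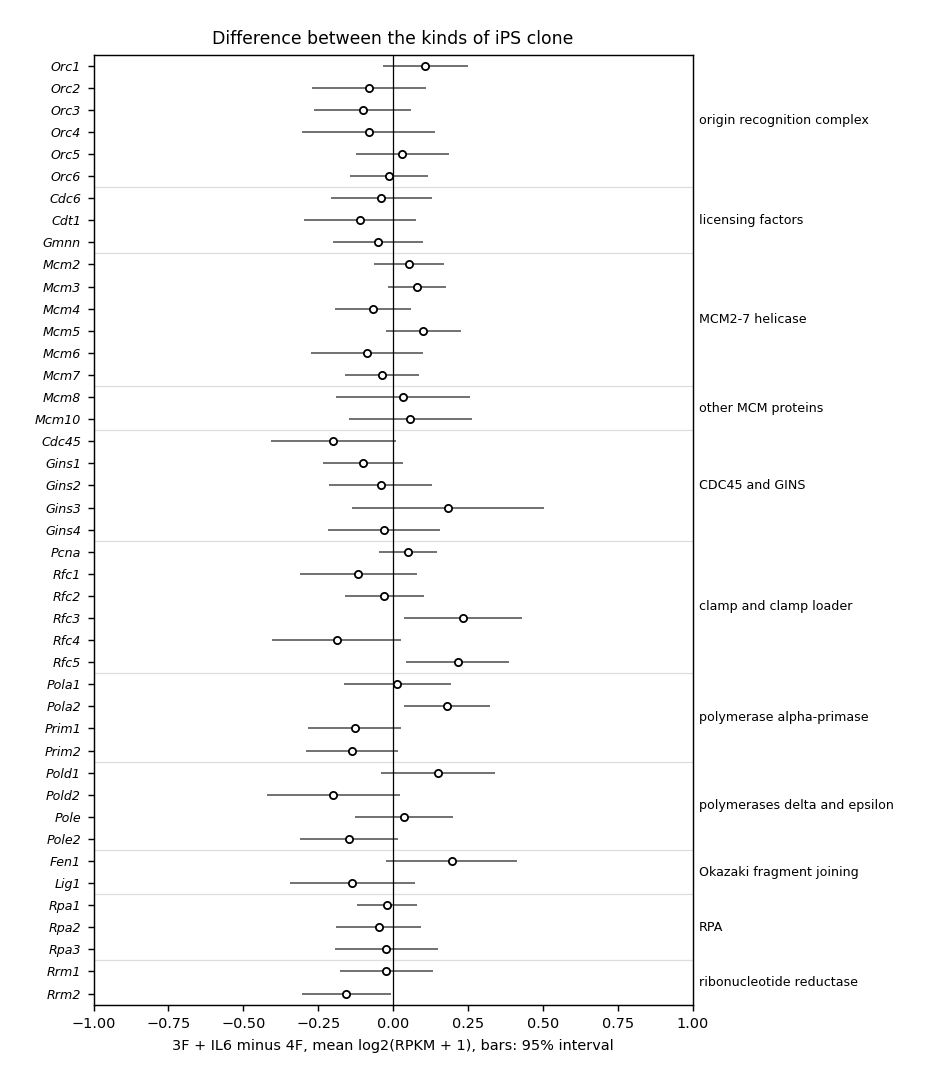
Difference of mean log2(RPKM + 1) between 3F + IL6 and 4F clones for each gene, with bars for the 95% interval. All points lie between −0.20 and 0.23, and all are drawn open because no adjusted p was under 0.05.

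Other genes of the same processes were counted from lists set by role. Over all genes, 49.7%, 49.4% and 49.2% were higher than in MEF in ES, 3F + IL6 and 4F, and 32%, 32.6% and 34.4% lower. Against ES cells, 33.1% of all genes were higher and 30.3% lower in 3F + IL6, and 33.7% and 33.5% in 4F. Of 25 further replisome and firing genes, 23 were higher and 1 lower in ES than in MEF (median 1.32), 22 higher and 1 lower in 3F + IL6 (1.37), and 22 higher and 2 lower in 4F (1.39). Timeless, part of the fork protection complex, had a log2 difference of 2.66 (SE 0.09) between ES and MEF, and Ticrr, the treslin gene, which brings CDC45 to origins, one of 2.15. Against ES cells 9 were higher and 5 lower in 3F + IL6, and 10 higher and 5 lower in 4F. Ticrr (−0.91 and −0.94) and Pole4, a small subunit of polymerase epsilon (−0.95 and −0.78), were lower.

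The 13 other nucleotide supply genes differed in both directions, as did the genes tested as a whole. Against MEF, 9 were higher in each of the 3 comparisons and 3, 2 and 2 lower, with medians of 0.99 in ES, 0.68 in 3F + IL6 and 0.69 in 4F. Against ES cells, 3 were higher and 3 lower in 3F + IL6, and 4 higher and 3 lower in 4F. Tyms, the thymidylate synthase gene, was lower than in ES cells (−0.73 and −0.93), and Dut, which encodes the enzyme that clears dUTP, was higher (0.66 and 0.52).

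All 9 replication-coupled chromatin genes were higher than in MEF in ES (median 1.20), 3F + IL6 (1.46) and 4F (1.37). Nasp, a histone chaperone, had a difference of 2.92 and Uhrf1, which guides maintenance methylation, one of 2.39 between ES and MEF. Of 8 checkpoint genes 7 were higher than in MEF in each comparison, among them Chek1, the checkpoint kinase, in ES (1.91). The E2F and pocket protein genes, the regulators of this program, differed in both directions, as did the genes tested as a whole. Of 13, 5 were higher and 2 lower in ES than in MEF (median 0.20). In 3F + IL6 6 were higher and 1 lower (0.47, with 6 and 5 under quantile normalization), and in 4F 7 and 3 (0.51). Not called were 6, 6 and 3 of the 13, while 81.7%, 82.1% and 83.6% of all genes were called. Against ES cells, E2f6, a repressor, was lower (−0.88 and −1.01) and Rbl2, the p130 pocket protein, higher (0.90 and 1.15). Rbl2 was low throughout, at 0.79 and 0.84 RPKM in ES, 2.49 and 2.26 in 3F + IL6 and 2.81 and 3.22 in 4F. Its ES values lie under the 1 RPKM used to filter genes.

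The mitosis genes, which mark dividing cells without being part of replication, moved in the same direction. Of 20, 17 were higher in ES than in MEF (median 1.08), and all 20 in 3F + IL6 (1.34) and in 4F (1.39), with 0 lower. Against ES cells 11 were higher and 2 lower in 3F + IL6 (median 0.23), and 13 higher and 2 lower in 4F (0.31), among them Cdk1 (0.76 and 0.79), the mitotic kinase. Their part in the differences of the replication genes was not tested. Between the kinds of clone 0 genes of these 6 lists passed the threshold in limma, while 17 of the 88 had an unadjusted p under 0.05, beside 24.2% of all genes, and the nearest were Chaf1b (0.33, adjusted p = 0.053) and Chek1 (−0.37, adjusted p = 0.057). Without 3F + IL6 clone 1, 8 of the mitosis genes were lower in 3F + IL6, where 12.7% of all genes were lower, and among the replication checkpoint genes 1 was lower with median centring and with quantile normalization.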

How the data were processed

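Each deposited table lists 1 value per gene symbol with no unit in its header. RPKM was taken as the unit of the deposited values because low values times gene length cluster at multiples of a constant step. Of the low values, 50.7% to 54.3% were whole within 0.1 read, so the values were not turned back into reads and a count model was not used. The same step gave the estimated depth of each library. The submitters' processing notes name mm10 as the build for these 50 bp reads. For aligner, counting tool, annotation, strand and shared reads, the setting is not given in the sources used here. A stray header row was dropped from each table.

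log2(RPKM + 1) was computed, which understates changes of low genes. Genes at 1 RPKM or more in at least 2 libraries were kept (13200, all 43 members among them). limma 3.58.1 in R 4.3.3 fitted all 8 libraries at once with trended empirical Bayes, two-sided, without a replicate block, and p-values of each of 6 comparisons were adjusted over all genes tested. With 2 libraries a group, p-values measure the spread between these libraries and clones only. Gene coordinates are mm10 from GENCODE M21, and 16 members overlap exons of another gene, 13 of them on the opposite strand. The script was tested on simulated data. Any member could be named, and of each other list up to 4 genes with the smallest p per comparison. The listings were matched by symbol or RefSeq synonym (Ticrr is tabulated under an older name). The members and lists were chosen with earlier results of these data known. Alternatives were another pseudocount, other filters and scalings, no variance trend, fewer libraries, the replicate block and, chosen after seeing the data, a term for libraries above 200 RPKM of Rn45s, Rpph1 and Rmrp summed.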

Additional observations from a re-analysis of the deposited data

How the results depend on the processing

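No member's difference that was called changed direction in any of the 17 other settings. Calls against MEF numbered 41 to 43 in ES, 41 to 42 in 3F + IL6 and 41 to 43 in 4F. The calls of 3F + IL6 against ES numbered 18 to 32 when libraries were left out in turn, against 32 with all 8, and were 22 in a fit of the 4 libraries compared and 23 with library class as a term. Between the kinds of clone they numbered 0 to 9 when libraries were left out in turn and 0 in all other settings. Same-numbered libraries showed little pairing: deviations from the group means correlated at −0.06 to 0.21 over the pairs of groups. The 0.21 was that of ES with MEF. In both of these groups library 2 was above 200 RPKM of Rn45s, Rpph1 and Rmrp summed and library 1 was below. With the replicate number as a block the counts were 41, 41 and 42 against MEF in ES, 3F + IL6 and 4F, 30 and 29 against ES in 3F + IL6 and 4F, and 0 between the kinds of clone. The cause of the lost calls was not tested. Calls of 3F + IL6 against ES were also lost in fits that kept all 8 libraries. These were 5 with median centring, 5 without the variance trend and 9 with library class as a term. A further 2 were lost with quantile normalization, 2 with the replicate block, 2 without the filter and 1 with a pseudocount of 0.1, each counted by setting. Whether depth limits the members was not tested. The largest ratio between the libraries of a group was that of Mcm8 in ES (1.15) and of Gins3 in 4F (1.26) and MEF (1.15), which are among the least abundant members, and of the more abundant Lig1 in 3F + IL6 (1.22). The 2 libraries a group limit every comparison.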
